A study of Homo sapiens with 38 samples.

Results

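A set of 9 genes commonly used to mark trophectoderm and amnion was followed while naive human embryonic stem cells left the naive state. The set was taken by gene symbol and holds GATA2, GATA3, CDX2, TFAP2A and HAND1, which are read as trophectoderm genes, and ISL1, GABRP, VTCN1 and IGFBP3, which are read as amnion genes. All 9 symbols were found among the 57133 genes of the count table, and 8 of them were among the 16674 genes with enough counts to be tested. VTCN1 was not.

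All libraries came from Shef6, an established human embryonic stem cell line labelled as naive and serum-adapted. Naive cells, day 0, were kept in PXGL medium, either on a serum-coated surface or on Geltrex, an extract of basement membrane. The same cells were moved on Geltrex into N2B27, a basal medium without added growth factors, or into the commercial media E8 and mTeSR, which hold FGF2 and TGF-beta, and in a further experiment into XAV (N2B27 with the tankyrase inhibitor XAV939) and FAX (N2B27 with FGF2, Activin A and XAV939). The first experiment, Ex1, gave 30 libraries, with both naive coatings, a course of 5 days (2, 3, 4, 6 and 8) for each of N2B27 and E8, and the last 3 of those days for mTeSR. The second, Ex2, gave 8 libraries, with Geltrex-coated naive cells beside day 4 of N2B27, of XAV and of FAX. The labels of these Ex2 naive libraries give day 0 as title and time point but day 4 within the library name, and they were taken as day 0. Each of the 19 groups had 2 libraries, so the naive state had 6 over both experiments and N2B27 at day 4 had 4. A lone cell line was used. The study calls these libraries technical replicates in one place and biological replicates in another, and the labels name no separate cultures within a group, so the p-values below measure only the spread between libraries, which may be technical.

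Trophectoderm is the outer layer of the blastocyst, from which the placenta grows, and amnion is a thin epithelium that later arises from the epiblast side of the implanted embryo. The transcription factors GATA2, GATA3 and TFAP2A act in both tissues and in surface ectoderm, and human naive pluripotent cells can form trophectoderm whereas later pluripotent cells turn to amnion when exposed to BMP. Several of the genes have other uses: CDX2 and HAND1 also mark posterior and extraembryonic mesoderm, and ISL1 also marks cardiac and limb progenitors, so no gene of the set identifies a cell type alone.

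Sequence 5′ of the start of CDX2, HAND1 and ISL1 is shown because CDX2 and HAND1 gave the widest differences between E8 and N2B27 at day 8 and because ISL1 fell in E8 and mTeSR. Each run is the 250 bases before the RefSeq start on GRCh38.p14, written 5′ to 3′ on the strand of the gene. Capitals mark GATAA, the core letters of a GATA site, on either strand (TTATC on the other), and GCCNNNGGC, the letters of an AP-2 site, which read the same on both strands. The windows lie at chr13:27969316-27969565 on the minus strand, chr5:154478228-154478477 on the minus strand and chr5:51383198-51383447 on the plus strand.
CDX2: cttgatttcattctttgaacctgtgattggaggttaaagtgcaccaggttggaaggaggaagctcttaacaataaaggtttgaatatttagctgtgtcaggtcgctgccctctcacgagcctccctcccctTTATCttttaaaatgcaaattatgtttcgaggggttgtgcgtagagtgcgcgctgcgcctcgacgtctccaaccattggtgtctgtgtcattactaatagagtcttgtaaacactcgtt
HAND1: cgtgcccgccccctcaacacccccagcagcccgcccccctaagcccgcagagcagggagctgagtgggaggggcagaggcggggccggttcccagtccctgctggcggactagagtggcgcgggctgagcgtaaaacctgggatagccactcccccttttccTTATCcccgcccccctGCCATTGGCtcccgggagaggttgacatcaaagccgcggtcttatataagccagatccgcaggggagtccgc
ISL1: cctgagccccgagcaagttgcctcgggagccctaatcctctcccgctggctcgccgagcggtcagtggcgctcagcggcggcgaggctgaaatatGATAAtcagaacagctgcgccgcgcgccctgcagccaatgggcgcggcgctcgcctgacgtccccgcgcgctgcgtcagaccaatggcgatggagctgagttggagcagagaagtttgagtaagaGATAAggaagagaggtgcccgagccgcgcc
CDX2 held GATAA 119 bases before the start, HAND1 held GATAA 88 and GCCNNNGGC 72 bases before it, and ISL1 held GATAA at 155 and 30. GATAA stood in 20.4% of all 35116 RefSeq windows of 250 bases and GCCNNNGGC in 19.8%. Over the 16 windows listed for the 9 genes, 4 windows of 4 genes held GATAA and 7 windows of 4 genes held GCCNNNGGC. These are matches of letters, and binding was not measured.

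Read depth was low to moderate and even. Totals ran from 3038046 to 5612354 counts per library with a median of 4427277, and 21018 to 25447 genes were detected. Libraries of a group correlated at r 0.965 to 0.986 across genes, and no pair was closer than counting noise allows. A gene at 3 counts stood at 0.520 to 1.06 CPM (counts scaled to a common library size after TMM correction), and 3 counts is the floor used below: it covers counting error only. In these bulk libraries fewer cells of a type and less RNA per cell cannot be told apart.

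Of 120 tests of the 8 tested genes against naive cells, over 15 media and days, 79 passed (edgeR quasi-likelihood test, adjusted p under 0.05 and a log2 fold change beyond 1), 64 higher and 15 lower. In 5 of the 79 the libraries of the group overlapped those of naive cells (GATA2 and ISL1 in N2B27 at day 4, ISL1 in mTeSR at day 8, and GATA2 and HAND1 in XAV). IGFBP3 rose in 15 of 15, HAND1 in 14, GATA3 and GABRP in 12 each, GATA2 in 9, and TFAP2A in 1. CDX2 fell in 8 and rose in 1, and ISL1 fell in 7. The 12 GABRP calls are a description, since that gene passed the filter on low counts only through 1 library each of N2B27 and E8 at day 8. They are part of the 79 and the 64, and of the counts below for N2B27 and E8 from day 3 on, mTeSR and FAX. In N2B27, 2 of 8 genes were called at day 2 (16.2% of all genes tested) and 3 at day 3 (15.6%). Day 4, with 4 libraries, gave 7 (18.4%) and in Ex1 alone 6, day 6 gave 5 (23.1%) and day 8 gave 7 (23.9%). The 7 at day 4 were 5 higher and CDX2 and ISL1 lower, whereas all 7 at day 8 were higher and only ISL1 among the tested genes was not called.

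E8 gave another course. There 3 of 8 were called at day 2 (24.6% of all genes) and 4 at day 3 (17.8%). Days 4 and 6 gave 7 each (20.8% and 23.3%), day 8 gave 6 (27.5%), and these last calls held GATA3, HAND1, GABRP and IGFBP3 higher with CDX2 and ISL1 lower. In mTeSR the counts were 7 at day 4 (19.8%), 6 at day 6 (22.5%) and 4 at day 8 (25.1%), with HAND1, GABRP and IGFBP3 higher and ISL1 lower at the last day. At day 4, XAV gave 5 calls (17% of all genes) and FAX gave 6 (17.1%). All 15 comparisons share the naive libraries. Of the 79 calls, 42 had one side at 3 counts or fewer in every library and 5 had both sides there, so 32 rest on levels measured in both groups.

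**Figure D1:**
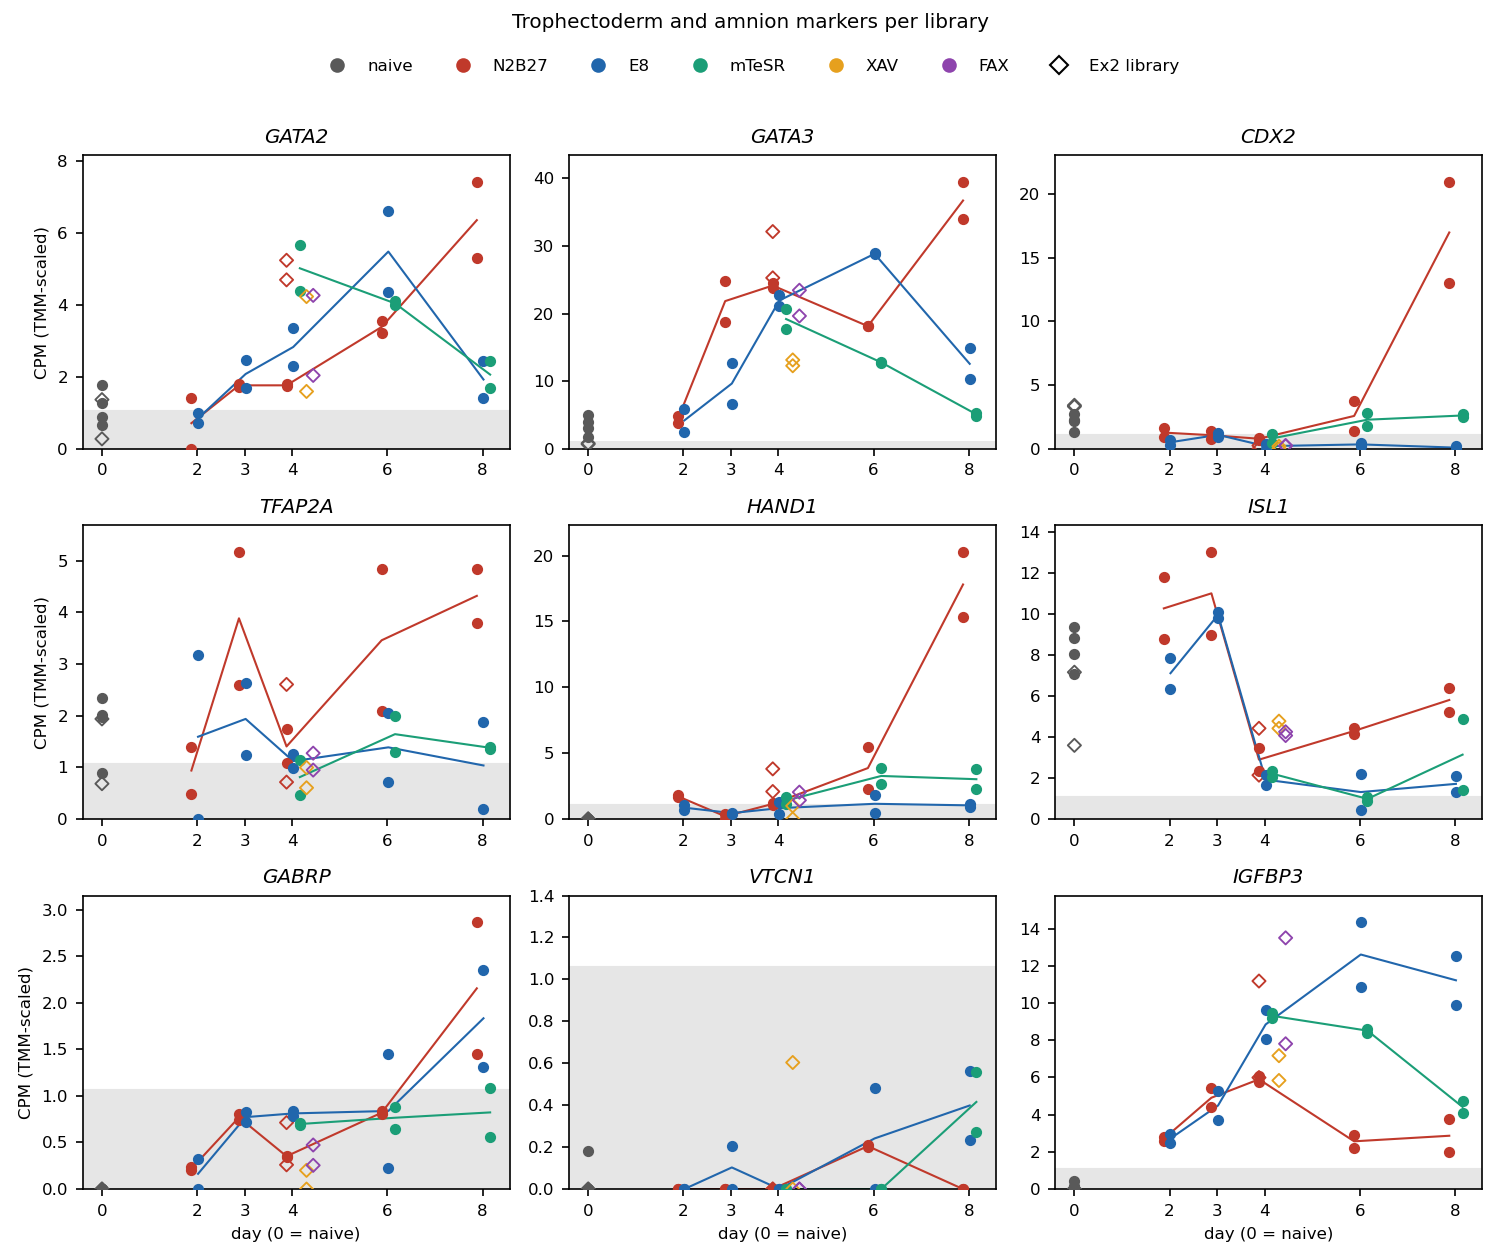
CPM of the 9 genes in each library (points) against day, with lines through the Ex1 group means, diamonds for Ex2 libraries and a grey band up to the highest 3-count floor (1.06 CPM). GATA3, CDX2 and HAND1 reach 33.96 to 39.4, 13.0 to 20.9 and 15.3 to 20.3 CPM in N2B27 at day 8, above every E8 and mTeSR library of that day.

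**Figure D2:**
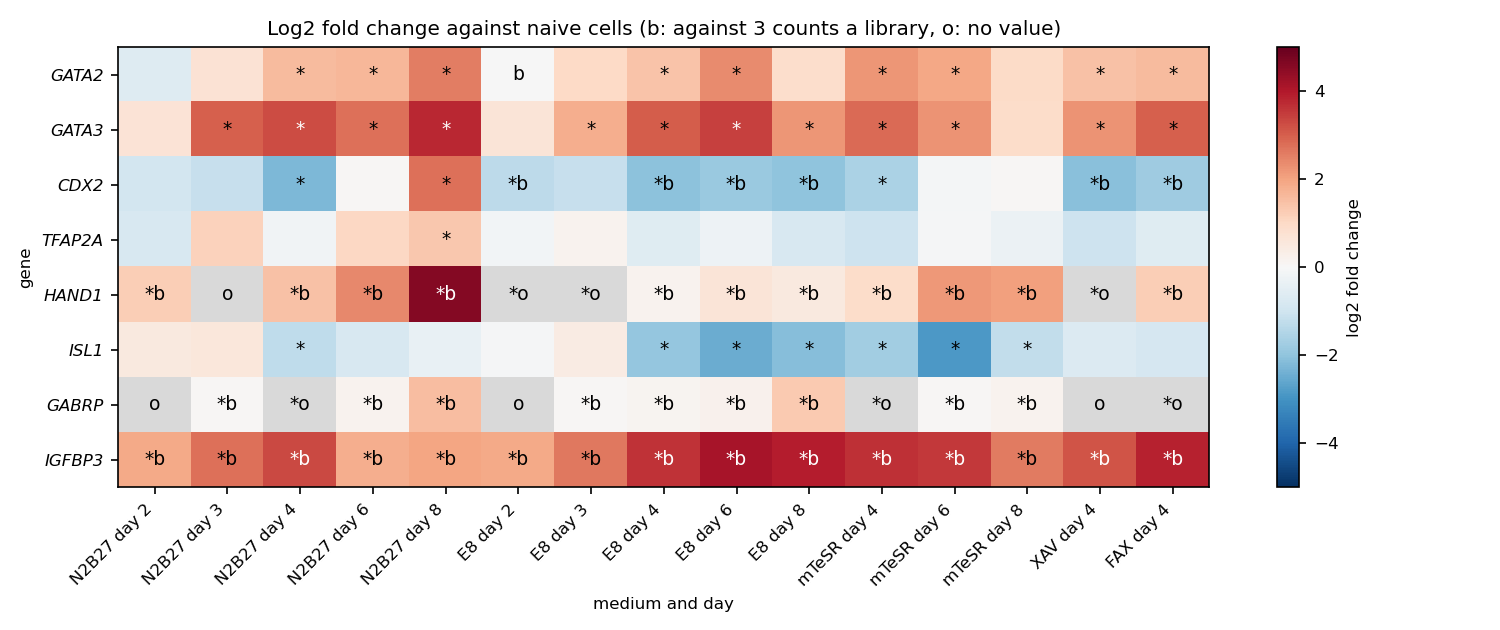
Log2 fold change of the 8 tested genes (vertical axis) against naive cells for each medium and day (horizontal axis). Stars mark calls, b marks values set against 3 counts a library and o marks cells with no value. CDX2 carries 8 stars in blue cells and 1 in a red cell, N2B27 day 8 (log2 2.75), and ISL1 is blue at days 4 to 8 of E8 and mTeSR.

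GATA2 (chr3:128479427-128493201, minus strand, GRCh38) encodes a zinc-finger transcription factor of trophoblast, amnion and blood. The 6 naive libraries lay between 0.277 and 1.77 CPM with a median of 1.07. That is 1 to 8 counts each. N2B27 libraries read 0 and 1.42 CPM at day 2, 3.54 and 3.22 at day 6, and 5.29 and 7.41 at day 8. All libraries from day 6 on stood above the naive range. At day 8 the mean was 6.35 ± 1.498 (SD, n = 2) against 1.04 ± 0.536 (n = 6) in naive cells, a log2 fold change of 2.57 ± 0.460 (SE), 5.95-fold, adjusted p = 2.09e-05 by edgeR. E8 was at its highest on day 6, with 4.35 and 6.60 CPM (log2 2.36 over naive, adjusted p = 0.000144), and read 2.44 and 1.41 on day 8, which was not called. By the edgeR interaction test the E8 and N2B27 courses of GATA2 were not called different (adjusted p = 0.0763, or 0.0201 with no filter). No step between days was called for it in any medium. mTeSR was at its highest at day 4, with 5.65 and 4.38 CPM. The day 6 call in N2B27 ended without replicate 1 of that group and the day 4 call in E8 without any of 5 libraries (serum-coated naive replicate 2, Geltrex naive replicate 1 of Ex1, Geltrex naive replicate 2 of Ex2, or either E8 day 4 library), with adjusted p up to 0.0653 and 0.274. Set against the serum-coated naive libraries alone, 5 of the 9 GATA2 calls ended: N2B27 at days 4 and 6 (adjusted p = 0.0951 and 0.0931), E8 at day 4 (0.217), XAV (0.209) and FAX (0.167), each by edgeR. At day 4 in Ex2, N2B27 read 4.69 and 5.23 CPM, XAV 4.23 and 1.59 and FAX 2.04 and 4.26. The XAV call (log2 1.45, adjusted p = 0.0326) ended without XAV replicate 1, serum-coated naive replicate 2, Geltrex naive replicate 1 of Ex1 or Geltrex naive replicate 2 of Ex2 (log2 down to 0.59, adjusted p up to 0.647), and the FAX call (log2 1.57, adjusted p = 0.0227) without FAX replicate 2 (log2 0.94). Both also ended with the experiment as a term (adjusted p = 0.259 and 0.192), and that of XAV with the compared libraries alone (0.0697).

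GATA3 (chr10:8045378-8075198, plus strand), a close relative that is among the earliest trophectoderm factors, was called in 12 of the 15 comparisons with naive cells. Naive libraries read 1.77 and 3.93 CPM on serum, 4.94 and 3.07 on Geltrex and 0.683 and 0.830 on Geltrex in Ex2. N2B27 was at 4.80 and 3.80 CPM on day 2, 24.9 and 18.8 on day 3, 24.4 and 23.8 on day 4, 18.1 and 18.1 on day 6, and 39.4 and 33.96 on day 8. No library from day 3 on overlapped the naive range. The level was 8.002-fold above naive cells at day 3 (SE 0.288 on the log2 scale, adjusted p = 2.95e-10) and 13.5-fold above them at day 8 (log2 3.75 ± 0.268, adjusted p = 9.21e-14). E8 stood at 12.7 and 6.61 CPM on day 3 and 22.8 and 21.1 on day 4, reached 28.7 and 28.9 on day 6 and dropped to 10.3 and 14.8 on day 8. mTeSR read 17.6 and 20.7 on day 4, 12.8 and 12.7 on day 6 and 4.89 and 5.32 on day 8, and its day 8 was not called against naive cells.

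CDX2 (chr13:27960918-27969315, minus strand), the caudal-type homeobox factor of trophectoderm and of the posterior embryo, went down before it went up. The naive libraries read 1.31 to 3.42 CPM with 6 to 15 counts each. N2B27 read 1.60 and 0.949 CPM on day 2, 0.867 and 0.717 on day 4 in Ex1, 0.261 and 0 on day 4 in Ex2, and 3.75 and 1.41 on day 6. On day 8 the 2 libraries stood at 20.9 and 13.0 CPM (95 and 72 counts), with no other library of the series above 3.75. The day 8 mean of 16.97 ± 5.603 was 6.74-fold above the naive mean of 2.54 ± 0.788 (log2 2.75 ± 0.355, adjusted p = 7.48e-08), and the day 4 level of N2B27 was lower than naive (log2 -2.23 ± 0.490, adjusted p = 0.000343). E8 held 2 counts or fewer in every library of days 2, 4, 6 and 8: 1 count was seen over both day 8 libraries against 63 over the 6 naive ones, a ratio of 23.6 (exact 95% counting interval 4.08 to 944.8). XAV held 1 count and FAX 2 over both libraries. mTeSR passed through 1.18 and 0.461 CPM on day 4 to 2.71 and 2.52 on day 8, inside the naive range. The mTeSR day 4 call (log2 -1.58, adjusted p = 0.0370) ended without any of 5 libraries (Geltrex naive replicate 2 of Ex1, either naive library of Ex2, or either mTeSR day 4 library; adjusted p up to 0.317), and the E8 day 2 call without either E8 day 2 library (up to 0.163). With serum-coated naive libraries alone both ended (adjusted p = 0.274 and 0.117), and that of mTeSR also with no filter, an experiment term, naive cells of the same experiment, the compared libraries alone or DESeq2 (0.0518 to 0.0697).

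TFAP2A (chr6:10393186-10419659, minus strand) encodes AP-2 alpha, which trophectoderm, amnion and surface ectoderm share. Naive libraries lay between 0.683 and 2.35 CPM, and N2B27 read 5.17 and 2.60 on day 3, 2.08 and 4.84 on day 6 and 4.85 and 3.79 on day 8. The day 8 mean of 4.32 ± 0.745 against 1.64 ± 0.681 was the only call over naive cells (log2 1.33 ± 0.527, 2.52-fold, adjusted p = 0.0382). That call ended without either N2B27 day 8 library, without serum-coated naive replicate 1 or without Ex2 naive replicate 1 (log2 from 1.15, adjusted p up to 0.211). It also ended with an experiment term, with serum-coated naive libraries alone, with naive cells of the same experiment and with DESeq2 (adjusted p 0.0512 to 0.0688). Replicates of one group differed widely here, as in E8 at day 8 with 0.187 and 1.88 CPM, from 1 and 8 counts.

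HAND1 (chr5:154474972-154478227, minus strand), a basic helix-loop-helix factor of trophoblast, extraembryonic mesoderm, amnion and heart, was at 0 counts in all 6 naive libraries. N2B27 gave 9 and 7 counts on day 2 (1.80 and 1.66 CPM), 0 and 2 on day 3, 7 and 6 on day 4 of Ex1, 11 and 27 on day 6 and 92 and 85 on day 8 (20.3 and 15.3 CPM). Day 8 stood apart from every other group, the next mean being 3.87 CPM. Against the naive floor it was at least 24.4-fold higher (17.81 ± 3.48 CPM, adjusted p = 8.90e-12). E8 libraries held 2 to 8 counts at all days, and mTeSR held 5 to 18. The calls of E8 at days 2 and 3 had both sides at the floor and allow no fold. Those of E8 at days 3, 4 and 6 ended without a library of the group itself: either replicate at day 3, replicate 1 at day 4 and replicate 2 at day 6, with adjusted p up to 0.1025, 0.0828 and 0.0590. The day 3 call also ended with serum-coated naive libraries alone (0.136) and with the compared libraries alone (0.0622). XAV at day 4 rested on 5 counts in replicate 2, with 0 in replicate 1, and its call ended without replicate 2 (log2 of 0), with either narrower set of naive libraries and with the compared libraries alone (adjusted p 0.103 to 0.114).

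ISL1 (chr5:51383448-51394730, plus strand), a LIM-homeobox factor of amnion and of heart progenitors, moved the other way. Naive libraries read 7.08 and 9.39 CPM on serum, 8.08 and 8.84 on Geltrex and 7.17 and 3.60 in Ex2. N2B27 stayed near that level on day 2 (11.8 and 8.78) and day 3 (13.0 and 9.01), read 3.47 and 2.33 on day 4 in Ex1, 4.17 and 4.43 on day 6 and 6.39 and 5.24 on day 8. Only the day 4 level was called lower in N2B27 (log2 -1.28 ± 0.277, adjusted p = 0.000295, with 1 of 4 libraries inside the naive range). E8 and mTeSR were lower at every one of days 4, 6 and 8, with 1.92 ± 0.352, 1.31 ± 1.21 and 1.72 ± 0.571 CPM in E8 and 2.21 ± 0.198, 0.981 ± 0.136 and 3.14 ± 2.47 CPM in mTeSR. The deepest was mTeSR at day 6 (log2 -2.89 ± 0.456, adjusted p = 3.23e-06). At mTeSR day 8 the libraries split, 4.89 and 1.399 CPM, and that call ended without replicate 2 (log2 -0.61, adjusted p = 0.306) and with the compared libraries alone (0.0536).

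GABRP (chr5:170763350-170814047, plus strand), a GABA-A receptor subunit strongly expressed in amnion, had few counts throughout. It was at 0 in all 6 naive libraries. The highest counts were 13 and 8 in N2B27 at day 8 (2.86 and 1.45 CPM) and 7 and 10 in E8 at day 8 (1.31 and 2.35 CPM), and every other library held 6 or fewer. GABRP entered the test only through 1 library in each of these groups, so its calls against naive cells support nothing further, and it was not among the genes left by a filter of more than 10 counts in 2 libraries. N2B27 at day 8 was at least 2.95-fold above the naive floor and E8 at day 8 at least 2.51-fold. The other 10 calls stood at most 1.15-fold over the floor or had both sides under it. The call of E8 at day 6 ended without replicate 1 of that group (adjusted p = 0.127) and that of FAX without replicate 2 (adjusted p = 0.142), with either narrower set of naive libraries, with the compared libraries alone and with DESeq2 (0.0610 to 0.129). VTCN1 (chr1:117143587-117210960, minus strand), an immune checkpoint protein of the B7 family found on amnion and trophoblast, was at 0 in 28 of 38 libraries, held 16 counts in all and never exceeded 3. Its 2 libraries of N2B27 at day 8 were at 0, which allows up to 3 counts each, so a difference was not detectable at this depth.

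IGFBP3 (chr7:45912245-45921874, minus strand), a secreted binding protein for insulin-like growth factors, rose in every medium from the first sampled day on. Naive libraries held 0 to 2 counts, 3 in all. N2B27 read 2.80 and 2.61 CPM on day 2, 5.41 and 4.41 on day 3, 6.07 and 5.73 on day 4 in Ex1, 2.92 and 2.22 on day 6 and 3.75 and 1.99 on day 8. E8 read 2.48 and 2.95 on day 2, 10.9 and 14.3 on day 6 and 12.6 and 9.89 on day 8. The counts of E8 at day 6 were 108 against 3 in naive cells, a ratio of 108.2 (exact 95% counting interval 36.0 to 533), and those of N2B27 at day 8 were 28, a ratio of 23.8 (7.34 to 122). mTeSR read 9.18 and 9.44 CPM on day 4 and 4.07 and 4.76 on day 8. FAX reached 13.5 and 7.81, and XAV 5.84 and 7.17. Adjusted p over the 15 comparisons ran from 3.37e-14 to 3.40e-06, and no call was lost when a library was left out.

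Media were then compared with each other at the same day within one experiment, which asks whether the markers followed the medium. Of 112 tests, 22 passed, 18 lower and 4 higher. Up to day 4 few differences were called. No gene of the set differed between E8 and N2B27 at day 2 (4.55% of all genes) or day 4 (2.49%), where edgeR gave no unadjusted p under 0.05 among them and DESeq2 called 0 of the 7 and 3 genes to which it gave an adjusted p, and GATA3 alone was called at day 3 (1.68% of all genes), at 9.65 ± 4.31 CPM in E8 against 21.8 ± 4.27 (log2 -1.19 ± 0.255, adjusted p = 0.00460). That call ended without N2B27 day 3 replicate 1 or E8 day 3 replicate 2 (log2 down to -0.77, adjusted p up to 0.0917) and with the compared libraries alone (0.451). For mTeSR at day 4, 0 were called against N2B27 (1.58% of all genes; GATA2 and IGFBP3 had unadjusted p under 0.05 by edgeR, and DESeq2 called 0 of 3 with an adjusted p) and 0 against E8 (0.084%; no unadjusted p under 0.05 by edgeR, and DESeq2 called 0 of 2 with an adjusted p).

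At day 6, E8 had less CDX2 and ISL1 and more IGFBP3 than N2B27 (3 of 8 genes against 5.28% of all genes). CDX2 had 3 counts over the E8 libraries and 25 over those of N2B27, a ratio of 7.29 (2.22 to 37.7) with adjusted p = 0.00928, ISL1 was at 1.31 against 4.30 CPM (log2 -1.71 ± 0.511, adjusted p = 0.0194), and IGFBP3 at 12.6 against 2.57 CPM (log2 2.29 ± 0.351, adjusted p = 2.47e-05). The first 2 of these were sensitive to 1 library: CDX2 was lost without N2B27 replicate 1 or either E8 library (adjusted p up to 0.196) and ISL1 without either N2B27 library or E8 replicate 2 (up to 0.323). mTeSR at day 6 likewise had less ISL1 (log2 -2.10 ± 0.530, adjusted p = 0.00997) and more IGFBP3 (log2 1.72 ± 0.365, adjusted p = 0.00246) than N2B27, 2 of 8 against 2.62% of all genes. ISL1 was lost there without N2B27 replicate 2 or either mTeSR library (adjusted p up to 0.0928) and IGFBP3 without N2B27 replicate 2 (0.0575). Between mTeSR and E8, GATA3 was lower in mTeSR (log2 -1.17 ± 0.238, adjusted p = 0.00273; 1.1% of all genes called), lost without either mTeSR library (up to 0.0581).

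Day 8 separated N2B27 from both commercial media. E8 was called in 7 of the 8 genes against 7.29% of all genes, 6 of them lower. The set was chosen with earlier results known, so this share describes it and is no test. CDX2 was at 1 count over the E8 libraries and 167 over those of N2B27, a ratio of 159 (28.1 to 6312; adjusted p = 7.08e-09). HAND1 was 16.6-fold lower (1.03 ± 0.129 against 17.81 ± 3.48 CPM, adjusted p = 2.61e-06), GATA3 2.94-fold lower (adjusted p = 9.56e-06), ISL1 3.41-fold lower (adjusted p = 0.00519), GATA2 3.22-fold lower (adjusted p = 0.0145) and TFAP2A 4.38-fold lower (adjusted p = 0.0410). IGFBP3 went the other way, 3.997-fold higher in E8 (11.2 ± 1.88 against 2.87 ± 1.24 CPM, adjusted p = 8.99e-05). GABRP did not pass the test, with a log2 difference of -0.23 and a 95% interval from -1.44 to 0.98. ISL1 was lost without E8 day 8 replicate 1 (adjusted p = 0.106), GATA2 without replicate 2 of N2B27 or of E8 (up to 0.130) and TFAP2A without either N2B27 library or E8 replicate 1 (up to 0.405). TFAP2A was also lost with the compared libraries alone (adjusted p = 0.0844) and with DESeq2 (0.101).

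mTeSR at day 8 was lower than N2B27 in 4 of 8 genes (3.8% of all genes called). GATA3 was 7.15-fold lower (5.10 ± 0.304 against 36.7 ± 3.87 CPM, adjusted p = 2.13e-08), CDX2 6.40-fold lower (adjusted p = 0.000111), HAND1 5.82-fold lower (adjusted p = 0.000600) and GATA2 3.07-fold lower (adjusted p = 0.0392). The GATA2 call ended without any 1 of the 4 libraries (log2 -1.91 to -1.34, adjusted p up to 0.274) and with DESeq2 (0.0864), whereas the other 3 were kept. TFAP2A, ISL1, GABRP and IGFBP3 did not pass, with 95% intervals of the log2 difference from -3.12 to -0.12, -1.73 to -0.001, -2.78 to 0.12 and -0.19 to 1.49, although TFAP2A passed with the compared libraries alone (adjusted p = 0.0253, edgeR). Set against E8 of the same day, mTeSR had more CDX2 (19 counts against 1, a ratio of 25.1 with interval 3.99 to 1043, adjusted p = 0.00158), less GATA3 (log2 -1.28 ± 0.313, adjusted p = 0.00535) and less IGFBP3 (log2 -1.35 ± 0.340, adjusted p = 0.00690), 3 of 8 against 5.31% of all genes. Here GATA3 was lost without E8 replicate 2 or mTeSR replicate 1 (adjusted p up to 0.0557) and with the compared libraries alone (0.0522), and IGFBP3 without E8 replicate 1 or either mTeSR library (up to 0.106).

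**Figure D3:**
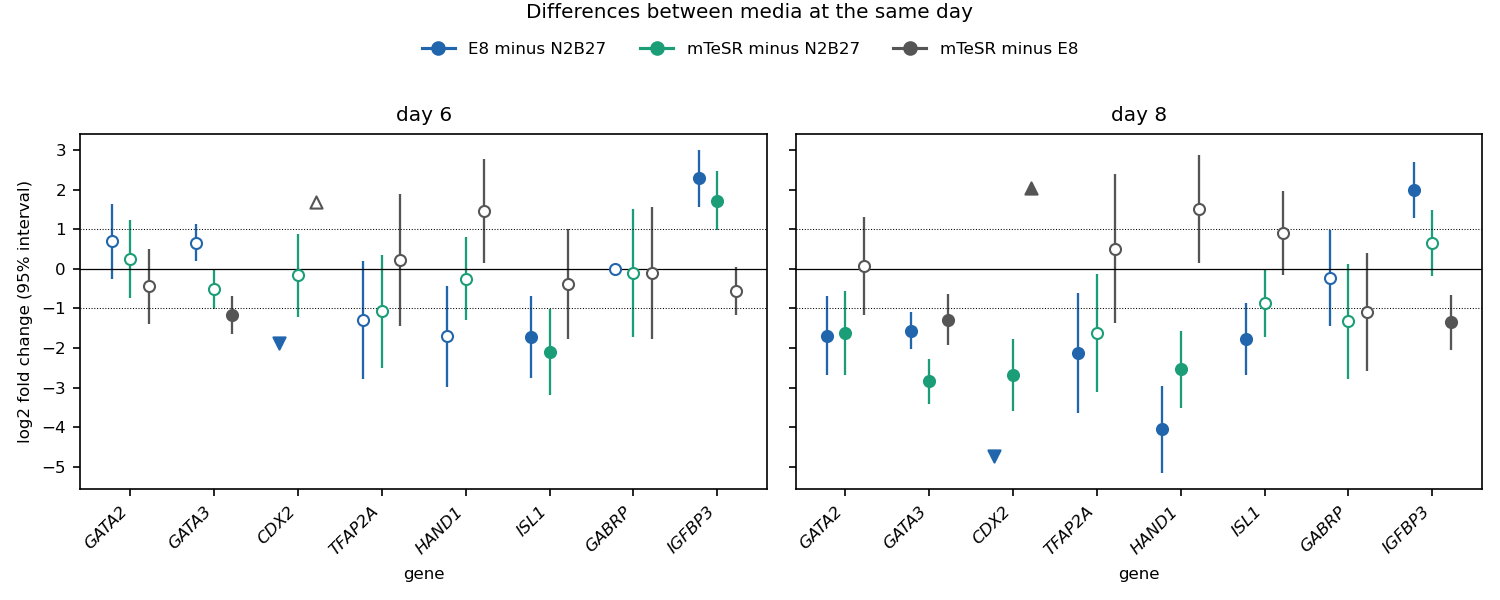
Log2 fold change between media of each tested gene at day 6 (left) and day 8 (right), with 95% intervals. Filled symbols passed the test, triangles are set against 3 counts a library, and dotted lines stand at a log2 fold change of 1 in either direction, while GABRP in E8 against N2B27 at day 6, near 0, has no interval drawn. At day 8 GATA2, GATA3, CDX2 and HAND1 lie below 0 in both E8 and mTeSR relative to N2B27, and IGFBP3 lies above 0 in E8 (log2 2.00).

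Within Ex2 the added compounds were compared at day 4, for which 3 pairs of media were tested. GATA3 was lower in XAV than in N2B27, 12.3 and 13.1 CPM against 25.3 and 32.1 (log2 -1.18 ± 0.237, adjusted p = 0.00384), as the 1 gene called of 8 where 0.57% of all genes were. The call ended without N2B27 replicate 2 or either XAV library (log2 -1.23 to -0.99, adjusted p up to 0.186). HAND1, with 8 and 16 counts in N2B27 and 0 and 5 in XAV, did not pass (log2 -2.50, 95% interval -4.03 to -0.98, adjusted p = 0.1103). FAX, with FGF2 and Activin A beside XAV939, read 23.4 and 19.6 CPM of GATA3, between the other media. In FAX against N2B27 0 of 8 were called (0.336% of all genes; no unadjusted p under 0.05 by edgeR, while DESeq2 gave an adjusted p to 1 gene and did not call it), and the GATA3 difference had a 95% interval from -0.88 to 0.05. In FAX against XAV 0 of 8 were called by edgeR or DESeq2 (0.012% of all genes), although GATA3, HAND1 and IGFBP3 had unadjusted p under 0.05 and log2 differences of 0.76, 1.73 and 0.70.

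Steps between consecutive sampled days were tested to see when genes moved (12 of 80 tests called, 7 higher and 5 lower). No step was called for GATA2, TFAP2A or GABRP. In N2B27, GATA3 rose between days 2 and 3 (log2 2.32 ± 0.288, adjusted p = 2.83e-06; 3.18% of all genes called), and ISL1 fell by 1.903 on the log2 scale between days 3 and 4 (SE 0.369, adjusted p = 0.00250; 1.09%). Between days 4 and 6 HAND1 rose (log2 1.74 ± 0.586, adjusted p = 0.0490) and IGFBP3 fell (log2 -1.20 ± 0.374, adjusted p = 0.0323), beside 3.89% of all genes. The last step, days 6 to 8, carried CDX2 (log2 2.704 ± 0.429, adjusted p = 0.000117), HAND1 (2.19 ± 0.445, adjusted p = 0.00324) and GATA3 (1.01 ± 0.221, adjusted p = 0.00534), 3 of 8 where 1.43% of all genes were called. CDX2 there and GATA3 at days 2 to 3 were kept whichever library was left out. HAND1 at days 4 to 6 was lost without N2B27 day 6 replicate 2 or either day 4 library (adjusted p up to 0.551) and with RLE scaling, the stricter filter or a replicate block (0.0503 to 0.0551), IGFBP3 there without any 1 of the 4 libraries (up to 0.253) and with DESeq2 (0.0791), ISL1 without day 3 replicate 1 or day 4 replicate 2 (up to 0.0975), HAND1 at days 6 to 8 without day 6 replicate 1 or day 8 replicate 1 (up to 0.101), and GATA3 at days 6 to 8 without either day 6 library or day 8 replicate 1 (up to 0.0922).

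In E8, GATA3 rose in both early steps, days 2 to 3 (log2 1.16 ± 0.357, adjusted p = 0.0194; 7.56% of all genes) and days 3 to 4 (1.20 ± 0.252, adjusted p = 0.00582; 0.81%), and fell by 1.21 between days 6 and 8 (SE 0.238, adjusted p = 0.00321; 0.804%). ISL1 fell by 2.36 between days 3 and 4 (SE 0.410, adjusted p = 0.000795). GATA3 was lost without replicate 1 of day 2 or of day 3 in the first step (adjusted p up to 0.263), without day 3 replicate 2 or day 4 replicate 1 in the next (up to 0.0871) and without day 6 replicate 2 or day 8 replicate 1 in the last (up to 0.202), whereas ISL1 was kept. Between days 4 and 6, 0 of 8 were called in E8 (2.51% of all genes; no unadjusted p under 0.05 by edgeR, DESeq2 0 of 4 with an adjusted p) and 0 in mTeSR (2.91%; GATA3 and CDX2 had unadjusted p under 0.05 by edgeR, DESeq2 0 of 3 with an adjusted p). In mTeSR GATA3 fell by 1.32 between days 6 and 8 (SE 0.313, adjusted p = 0.0152; 0.978% of all genes), a call that ended without any 1 of the 4 libraries (adjusted p up to 0.152).

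Whether a gene took another course in another medium was tested as the interaction of medium and day. Over days 2 to 8, the courses of E8 and N2B27 differed for GATA3 (adjusted p = 9.85e-05), CDX2 (0.000828), IGFBP3 (0.00225) and HAND1 (0.0245), 4 of 8 against 11% of all genes. Over days 4 to 8, mTeSR and N2B27 differed for GATA3 (8.34e-05) and GATA2 (0.0364), 2 of 8 against 2.18%. CDX2 missed the threshold there at an adjusted p of 0.0537, though it passed with a replicate block (0.0464) and with no filter (0.0217). Between mTeSR and E8 0 of 8 differed (0.918% of all genes; GATA3 and IGFBP3 had unadjusted p under 0.05 by edgeR, while DESeq2 gave an adjusted p to 1 of the 8 and did not call it). HAND1 in the first comparison was lost without N2B27 day 8 replicate 1, E8 day 4 replicate 1 or either E8 day 8 library (adjusted p up to 0.0757). GATA2 in the mTeSR comparison was lost without any of 10 of the 12 libraries, the exceptions being replicate 1 of day 6 in each medium (adjusted p up to 0.213).

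The same medium was also compared across coatings and experiments, since E8 and mTeSR were run in Ex1 and XAV and FAX in Ex2. Naive cells on Geltrex and on serum gave 0 calls of 8 (0.048% of all genes; no unadjusted p under 0.05 by edgeR, and no adjusted p from DESeq2 for any of the 8). Naive cells on Geltrex had less GATA3 in Ex2, whose library names read day 4, than in Ex1, 5 counts against 39, a ratio of 5.10 (2.01 to 16.6) with adjusted p = 0.00650, as the 1 call where 4.67% of all genes were called. It ended without either Ex2 library or Ex1 replicate 1 (adjusted p up to 0.0622). N2B27 at day 4 gave 0 calls between the experiments (1.01% of all genes; GATA2, CDX2 and HAND1 had unadjusted p under 0.05 by edgeR, DESeq2 0 of 3 with an adjusted p). Beside the pooled values, N2B27 day 4 against naive cells of the same experiment gave GATA3 a log2 fold change of 2.84 in Ex1 and 5.18 in Ex2, CDX2 -1.37 and -4.47, and ISL1 -1.52 and -0.69, the last of which was not called (adjusted p = 0.226). GATA2 was called in Ex2 (log2 2.65, adjusted p = 0.00209) and not in Ex1 (log2 0.61, adjusted p = 0.408). With naive libraries of the same experiment alone, 4 of the 79 calls were lost: TFAP2A in N2B27 at day 8 (log2 1.27, adjusted p = 0.0581), CDX2 in mTeSR at day 4 (log2 -1.33, adjusted p = 0.0697), HAND1 in XAV (adjusted p = 0.113) and GABRP in FAX (adjusted p = 0.129).

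Other markers of the same tissues moved in part. Of 16 other trophectoderm and early trophoblast genes, 13 were tested, and in N2B27 at day 8 against naive cells 7 were higher and 2 lower, with a median log2 fold change of 1.92 where the median of all genes was -0.03. Of all genes tested, 16.9% were higher and 7.03% lower in that comparison, 18.2% and 9.24% in E8 and 16.9% and 8.2% in mTeSR at the same day. VGLL1 of this list was at 0 in N2B27 at day 8. The genes named next are examples of the 7 higher, and the 2 lower are not named. ENPEP, a cell surface aminopeptidase, rose from 0.424 ± 0.306 to 22.6 ± 4.15 CPM, 10 against 225 counts and a ratio of 57.3 (30.6 to 121), the keratin KRT18 by 4.50 on the log2 scale and the homeobox factor MSX2 by 3.32. E8 and mTeSR at day 8 gave nearly as many calls against naive cells, 6 higher with 2 lower (median log2 fold change 0.08) and 6 higher with 1 lower (0.35), and KRT8, KRT18, KRT19, NR2F2, ENPEP and MSX2 were higher in all 3 media. The summed level of the list was 694 to 865 CPM in naive cells and 1231 to 1295 in N2B27 by day 2, and at day 8 it was 1445 to 1570 with N2B27, 1347 to 1356 with E8 and 1312 to 1391 with mTeSR. Of 17 later trophoblast genes 7 were tested, with 2 higher and 2 lower in each of N2B27, E8 and mTeSR at day 8, SDC1 and ITGA2 against GCM1 and ERVW-1. In N2B27 SDC1, a syndecan, rose from 9 to 239 counts, a ratio of 67.6 (35.0 to 149.6), and GCM1, the regulator of syncytiotrophoblast, fell by 4.07. The chorionic gonadotropin genes CGB3, CGB5 and CGB8, with CYP19A1 and INSL4, were at 0 in both libraries of N2B27 at day 8, as they were in all naive libraries, and the CGB genes are near-identical copies whose reads may be shared. Other amnion genes gave 5 higher and 0 lower of 6 tested in N2B27 (median 2.53), 3 and 0 in E8 (1.12) and 4 and 0 in mTeSR (1.71), with MSX1 in N2B27 up by 3.48, HPGD by 2.95 and the BMP pseudoreceptor BAMBI by 1.42.

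BMP4 is part of some media used to bring about amnion or trophectoderm markers in culture. Ligands and targets of BMP signalling were therefore read beside the set, and their part in its levels was not tested. Of 10 genes 9 were higher in N2B27 at day 8 (median log2 fold change 2.81), ID3 by 6.82, BMP7 by 3.73 and BMP4 by 3.70. At the same day E8 had 7 higher and 1 lower, and mTeSR 7 higher and 1 lower, the lower gene being BMP2 in each. Against N2B27, E8 was lower in 3 of the 10 (BMP2, ID2 and SMAD9), where 3.96% of all genes were lower, and mTeSR in 2 (BMP2 and ID2), where 2.15% were. None of the 3 general pluripotency genes passed both thresholds of the edgeR test in N2B27 at day 8. SOX2 and POU5F1 had log2 fold changes of -0.13 and -0.35, and NANOG had -0.39 with an adjusted p of 0.00498 but a change under the fold threshold. The naive pluripotency genes fell in 7 of 8, with SPIC at least 75.4-fold lower, KLF4 at 13.98 against 111.7 CPM and DNMT3L down by 2.62.

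Markers of other embryonic tissues moved with the same libraries. All 8 tested primitive streak and mesoderm genes of 11 were higher in N2B27 at day 8 than in naive cells, with a summed level of 378.2 to 492.4 CPM against 4.44 to 24.5, and all 5 endoderm genes were higher, at 152.1 to 170.7 against 0.683 to 4.21 CPM. TBXT (brachyury) stood at 63.0 ± 3.76 CPM, LHX1 at 134.3 ± 23.6, EOMES at 65.4 ± 12.8, SOX17 at 60.7 ± 3.30, FOXA2 at 35.9 ± 10.9 and GATA6 at 31.7 ± 0.614. In E8 at day 8 the streak sum was 73.1 to 75.8 CPM and the endoderm sum 18.1 to 22.7, with 7 of 8 and 5 of 5 genes lower than in N2B27. In mTeSR at day 8 the sums were 230.3 to 268.2 and 82.3 to 85.2 CPM, with 1 of 8 and 2 of 5 genes lower. CDX2, HAND1 and GATA2 are also expressed in mesoderm, and the part of these tissues in the levels of the set was not tested. Of 6 surface ectoderm and neural crest genes 3 were tested and 2, FOXD3 and GRHL3, were higher than in naive cells in each of N2B27, E8 and mTeSR at day 8. At that day the list summed to between 23.8 and 33.1 CPM for N2B27, with 48.7 and 60.3 as the E8 libraries and 30.7 and 39.7 as those of mTeSR, and FOXD3 was higher in E8 than in N2B27 (50.0 ± 6.87 against 23.1 ± 5.61 CPM, adjusted p = 9.06e-05, edgeR). KRT14 was at 0 in these and in the naive libraries.

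**Figure D4:**
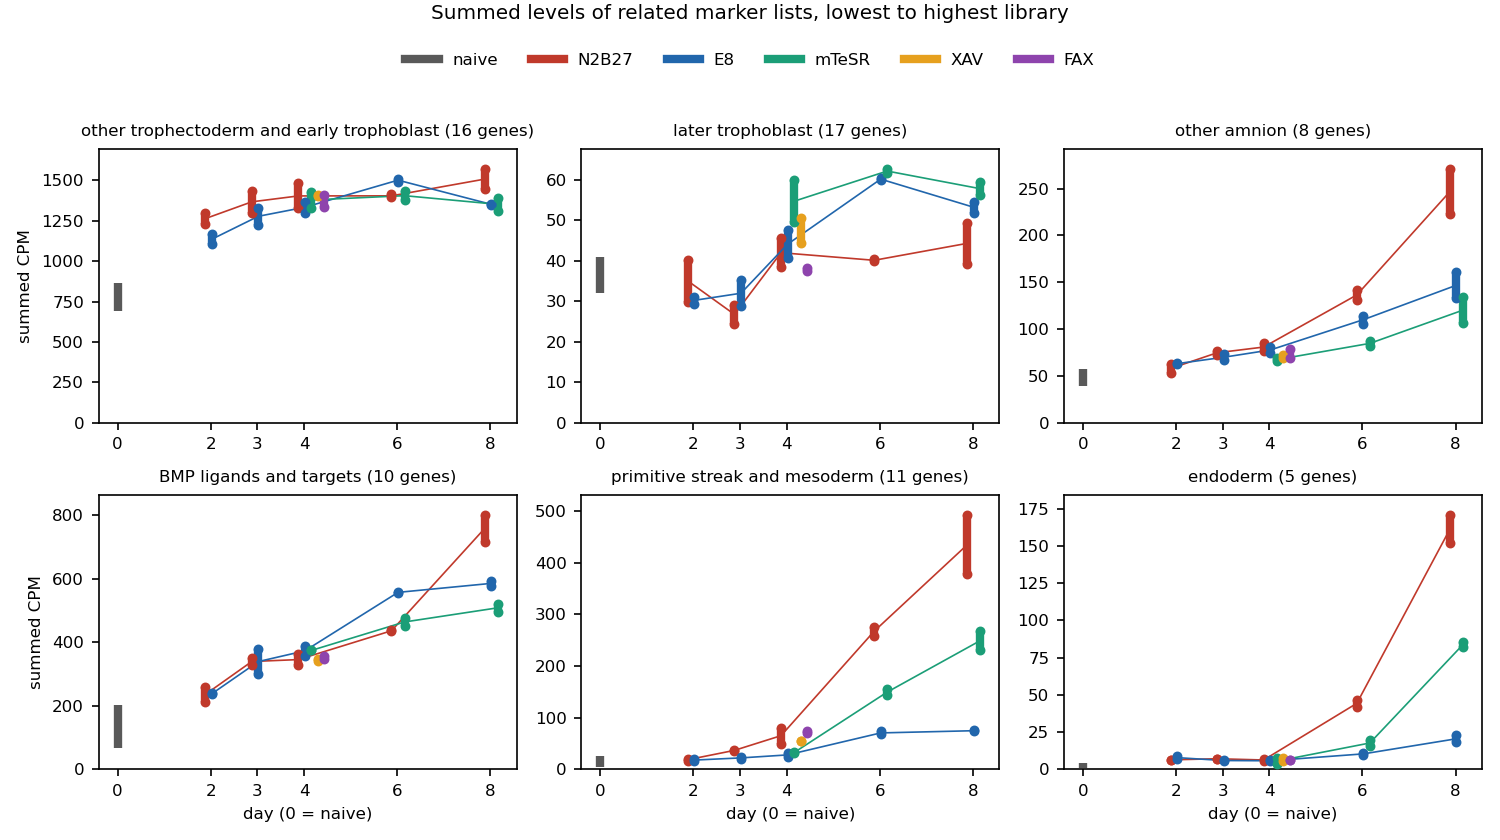
Summed CPM of 6 marker lists by day, as the range from the lowest to the highest library of each medium and day. The primitive streak and mesoderm sum is 378.2 to 492.4 CPM in N2B27 at day 8 and 73.1 to 75.8 in E8, and the later trophoblast sum reaches at most 62.7 CPM, in mTeSR at day 6.

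Ordered by group mean, N2B27 at day 8 was first of 19 groups for GATA2, GATA3, CDX2, TFAP2A, HAND1 and GABRP. ISL1 was highest in N2B27 at day 3 (11.03 CPM) and IGFBP3 in E8 at day 6 (12.6 CPM). For GATA3, CDX2 and HAND1 the first group differed from the next beyond their SD, and for the other genes it did not. Most neighbours in these orders did not differ beyond their SD: 16 of 18 for GATA2 and CDX2, 14 for GATA3, 15 for IGFBP3, 17 for HAND1, ISL1 and GABRP, and 18 for TFAP2A and VTCN1. For CDX2 the next group after N2B27 at day 8 was Ex2 naive cells at 3.37 CPM, and for HAND1 it was N2B27 at day 6.

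The 8 tested genes did not vary as one. Over the 19 group means of log2 CPM, which share libraries, depth and naive cells, Pearson r of the 28 pairs ran from -0.60 to 0.82 with a median of 0.32. GATA2 and GATA3 were the closest pair (0.82), followed by GATA3 and IGFBP3 (0.78), and 10 pairs were over 0.5, of which 4 hold GABRP and rest on its few counts. ISL1 with IGFBP3 (-0.60), ISL1 with GATA2 (-0.59) and CDX2 with IGFBP3 (-0.56) were the 3 pairs under -0.5. CDX2 and GATA3 gave -0.23. Among 11453 other genes, the profiles nearest to those other than GABRP were SFN for GATA2 (r 0.882), TIMP3 after the pseudogene TRIM53CP for GATA3 (0.903 and 0.930), CLCN5 for CDX2 (0.912), SPCS3 for TFAP2A (0.764), MYOF for HAND1 (0.886), COPB1 for ISL1 (0.878) and FGF2 for IGFBP3 (0.963). TRIM53CP belongs to a family of near-identical copies, so its counts are uncertain. These values describe likeness over 19 groups and were not tested.

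**Figure D5:**
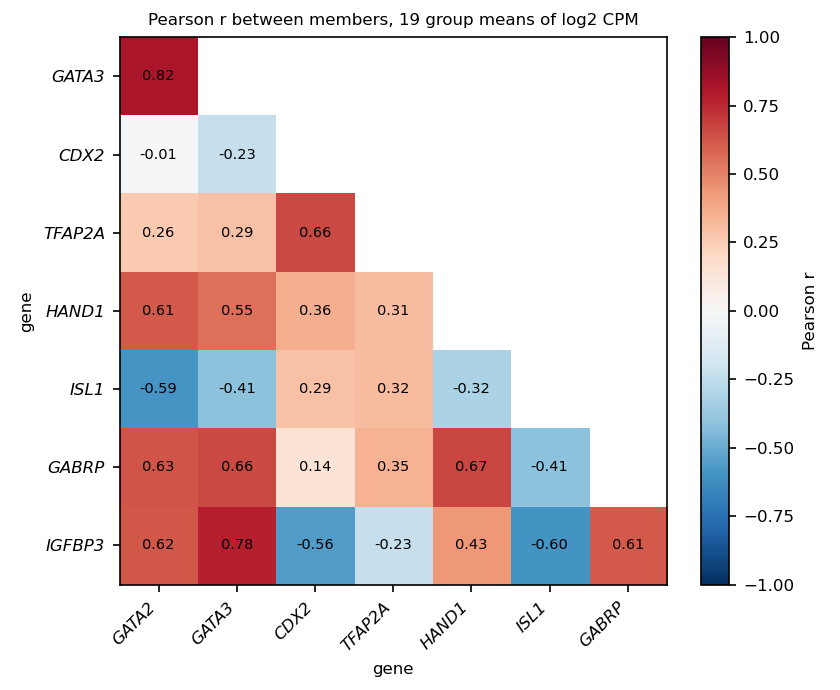
Pearson r between each pair of the 8 tested genes over 19 group means of log2 CPM, from blue (negative) to red (positive). GATA2, GATA3 and IGFBP3 are positive with each other (0.62 to 0.82), ISL1 is negative with these 3 (-0.60 to -0.41), and the values of GABRP rest on few counts.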

How the data were processed

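QuantSeq 3′ mRNA libraries were made from Shef6 cells. The deposited table holds raw counts of reads per gene, made by the authors on hg38; the submitters' processing notes name FastQC 0.11.9, STAR 2.7.10a, Salmon 1.9.0 and DESeq2. Counts of 3′ tags do not scale with gene length. Levels of single genes were not compared with each other, and the list sums add CPM across genes, so the most abundant genes weigh most in them. Genes were kept with edgeR's filterByExpr (16674 genes, 99.65% of counts), scaled by TMM and tested with the quasi-likelihood F-test in edgeR 4.0.16 (R 4.3.3, limma 3.58.1), with Benjamini-Hochberg adjustment over all genes tested. A call needed an adjusted p under 0.05 and a log2 fold change beyond 1; course interactions needed only the adjusted p. Naive comparisons pooled the 6 naive libraries and the 4 of N2B27 at day 4 over both experiments (16 levels), and all others used the 19 groups. Library totals ran from 3038046 to 5612354 counts. The floor of 3 counts and the 95% ratio intervals cover counting error only.

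The 9 genes and the marker lists were chosen with earlier results of these data known. All 9 genes are described; list genes are named as examples, and the genes of most similar profile are the nearest by Pearson r among those reaching 10 CPM. Same-numbered libraries deviated together in no regular way (111 pairs of groups, r from -0.54 to 0.45, median 0.01), so the numbers were not taken as pairs. Alternatives were RLE scaling, plain totals, other filters, a replicate block, an experiment term, other naive libraries, the compared libraries alone, DESeq2 1.42.0 and leaving out each library. The scripts were tested on simulated data in which only genes at higher levels were changed, so genes with few counts, as many here, were not covered. Gene positions are from GENCODE 44 on GRCh38 and start-site windows from RefSeq on GRCh38.p14. No column of the table was left unassigned (0).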

Additional observations from a re-analysis of the deposited data

Results flagged for a closer look

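Among the 4 libraries of N2B27 at day 4, IGFBP3 in replicate 2 of Ex2 (11.2 CPM) stood apart from the others at 5.73 to 6.07 CPM, with a gap of 0.939 of the range. It was 1 of 12 such tests, of which chance marks about 1 in 20.

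Courses differed between E8 and N2B27 over days 2 to 8 for GATA3 (adjusted p = 9.85e-05), CDX2 (0.000828), HAND1 (0.0245) and IGFBP3 (0.00225), by the edgeR interaction test. Between mTeSR and N2B27 over days 4 to 8 they differed for GATA2 (0.0364) and GATA3 (8.34e-05).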

How the results depend on the processing

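Of 120 called values, 80 were kept under every alternative that gave them a value, 102 under every such setting other than leaving out a library, 39 were lost when some library was left out, and 0 reversed. The GABRP calls have no value under the stricter filter, and some other calls have no adjusted p from DESeq2. Lone libraries left in a group were assumed to vary like the others. The cause was not tested for any loss. By setting, calls were lost in 1 of 120 with RLE scaling, 0 with plain totals, 1 of 108 with the filter of more than 10 counts in 2 libraries, 1 of 120 with no filter, 4 of 79 with an experiment term, 11 of 79 with serum-coated naive libraries only, 4 of 79 with naive libraries of the same experiment, 9 of 101 with the compared libraries alone and 6 of 115 with DESeq2. Depth limits GABRP, VTCN1 and CDX2 in E8, XAV and FAX, which stood at or near 3 counts.

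The replicate block gave 79, 22, 11, 1 and 7 called genes against naive cells, between media, between days, between coatings or experiments and between courses, where 79, 22, 12, 1 and 6 were called without it. It lost HAND1 between days 4 and 6 of N2B27 (HAND1, N2B27 day 6 against N2B27 day 4: log2 1.72, adjusted p = 0.0551, with 1 gene called in place of 2), gained CDX2 in the mTeSR and N2B27 courses (adjusted p = 0.0464) and changed no other call.

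XAV against naive cells gave 3 genes in place of 5 with the compared libraries alone and with serum-coated naive libraries only. With the compared libraries alone, E8 against N2B27 gave 0 at day 3 in place of 1, mTeSR against N2B27 gave 1 at day 4 in place of 0 and mTeSR against E8 gave 2 at day 6 in place of 1. With no filter, XAV against N2B27 gave 2 in place of 1, N2B27 from day 2 to 3 gave 3 in place of 1 and the mTeSR and N2B27 courses gave 4 in place of 2. N2B27 from day 4 to 6 gave 0 with DESeq2, which gave HAND1 no adjusted p, and 1 with RLE scaling or the stricter filter, in place of 2.

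With each library left out in turn, the totals were 76 to 80 against naive cells, 19 to 22 between media, 9 to 13 between days, 0 to 1 between coatings or experiments and 4 to 7 between courses. E8 against N2B27 gave 0 to 1 at day 3 and 1 to 2 at day 6, mTeSR against N2B27 0 to 2 at day 6, mTeSR against E8 0 to 1 at day 6 and 1 to 2 at day 8, and XAV against N2B27 0 to 1. Steps gave 1 to 2, 0 to 1, 0 to 1 and 1 to 3 in N2B27, 0 to 1 (days 2 to 3), 1 to 2 (days 3 to 4) and 0 to 1 (days 6 to 8) in E8, and 0 to 0 in mTeSR from day 6 to 8. Naive cells between experiments gave 0 to 1, and the mTeSR and N2B27 courses 1 to 3.

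Plain library totals moved the median of all genes by -0.145 in E8 day 2 against naive cells, and the share of higher calls over all genes from 56.5% to 45.9% there, 62.1% to 43.5% in E8 against N2B27 at day 2, 73.5% to 84.2% in N2B27 from day 3 to 4, 57.1% to 70.8% in E8 from day 2 to 3, 50% to 33.3% between coatings and 38.7% to 27.4% between experiments in N2B27 at day 4. Over all genes, DESeq2 called fewer than edgeR by over 1.5 times in E8 against N2B27 (488 and 758 at day 2, 166 and 280 at day 3, 263 and 415 at day 4), mTeSR against N2B27 (162 and 263, 290 and 437, 418 and 634), mTeSR against E8 at day 6 (121 and 184), FAX against XAV (1 and 2), the later steps of N2B27 (116 and 181, 411 and 648, 148 and 239), the first 3 steps of E8 (774 and 1260, 88 and 135, 262 and 419), the steps of mTeSR (322 and 486, 106 and 163) and N2B27 at day 4 between experiments (102 and 168). The compared libraries alone gave 409 and not 758, 6 and not 280, and 669 and not 415 in E8 against N2B27 at days 2, 3 and 4, 343 and not 184, and 443 and not 885 in mTeSR against E8 at days 6 and 8, 167 and not 95 in XAV against N2B27, 132 and not 56 in FAX against N2B27 and 24 and not 2 in FAX against XAV. With no filter, mTeSR against E8 at day 4 gave 58 and not 14 (9 with plain totals), FAX against N2B27 88 and not 56, FAX against XAV 23 and not 2, E8 from day 6 to 8 258 and not 134, the coatings 106 and not 8 and the mTeSR and E8 courses 369 and not 153.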
